A study of Mus musculus with 12 samples.

Results

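The genes described here are 32 genes of glucose uptake, glycolysis, lactate handling and the pentose phosphate pathway, followed in the mouse osteosarcoma lines Dunn and LM8. They were chosen by name: a probe belonged to the set when its accession was that of a listed gene. All 32 genes were found, on 48 of the 39429 probes, among 20144 genes that could be named in all. Dunn cells have a low metastatic potential, and LM8 cells are their metastatic derivative, obtained by selection in mice. Both are osteoblastic lines without any treatment or engineered allele. Each was measured at an early and a late passage, on 3 Agilent single-colour arrays per group. The early cells were at passage 25 (Dunn_25) and passage 24 (LM8_24). The late cells were at passage 86 (Dunn_86) and passage 91 (LM8_91). All cells grew under the same conditions, in a 1:1 mixture of Ham F12 and DMEM, the latter with 4.5 g/l glucose, plus 10% fetal calf serum, and RNA was taken at 75% confluence. The study asked how stable gene expression is during long culture, and which genes separate the metastatic from the parental cells whatever their passage. The comparisons below put both questions to these genes.

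Glycolysis splits glucose into pyruvate and yields ATP without oxygen. Pyruvate is either reduced to lactate, which leaves the cell with a proton through monocarboxylate transporters, or enters mitochondria, where pyruvate dehydrogenase turns it into acetyl-CoA. Pyruvate dehydrogenase kinases block this second route. The pentose phosphate pathway branches off after the first step and supplies NADPH and ribose. Many tumour cells make lactate in the presence of oxygen, and many of these genes are targets of hypoxia-inducible factor, which binds DNA at a core read as ACGTG or GCGTG. Osteoblasts also rely strongly on glycolysis.

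Slc16a3, Ldhb, Pdk4 and Aldoc carry the results that follow. The 250 bases before their transcription starts are therefore shown 5′ to 3′ on the strand of the gene, from RefSeq and in the coordinates of GRCm38.p6. Capitals mark each ACGTG or GCGTG core, read on either strand. The Slc16a3 stretch is chr11:120948817-120949066 (+), that of Ldhb chr6:142507958-142508207 (-), that of Pdk4 chr6:5496279-5496528 (-) and the first of the 2 Aldoc starts chr11:78322823-78323072 (+).
Slc16a3: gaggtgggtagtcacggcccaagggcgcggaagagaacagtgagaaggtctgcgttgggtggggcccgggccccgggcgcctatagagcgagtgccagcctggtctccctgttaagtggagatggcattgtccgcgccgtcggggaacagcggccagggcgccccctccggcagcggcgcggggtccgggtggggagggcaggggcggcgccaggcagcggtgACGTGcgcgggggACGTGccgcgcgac
Ldhb: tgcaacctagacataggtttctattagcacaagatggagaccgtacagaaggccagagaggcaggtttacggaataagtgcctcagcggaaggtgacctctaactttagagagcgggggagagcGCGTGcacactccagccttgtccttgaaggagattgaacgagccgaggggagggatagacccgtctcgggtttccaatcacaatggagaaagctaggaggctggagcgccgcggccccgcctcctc
Pdk4: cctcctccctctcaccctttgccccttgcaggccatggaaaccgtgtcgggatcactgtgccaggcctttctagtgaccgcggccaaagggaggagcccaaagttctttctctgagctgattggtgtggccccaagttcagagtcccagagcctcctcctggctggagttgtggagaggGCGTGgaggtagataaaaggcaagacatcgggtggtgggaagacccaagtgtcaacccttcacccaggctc
Aldoc: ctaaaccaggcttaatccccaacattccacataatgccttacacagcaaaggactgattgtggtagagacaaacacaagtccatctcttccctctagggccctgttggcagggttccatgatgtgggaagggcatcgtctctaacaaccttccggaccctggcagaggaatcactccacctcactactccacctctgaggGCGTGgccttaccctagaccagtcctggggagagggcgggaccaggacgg
The Slc16a3 stretch holds 2 ACGTG cores close to the start, and each of the other stretches holds 1 GCGTG core. Windows of 300 bases, from 250 before to 50 after each start, were given for 31 of the 32 genes, 46 windows in all. ACGTG or GCGTG, on either strand, was found in 36 of these 46 windows (78.3%), against 43.8% of all 32851 promoter windows. ACGTG alone was in 45.7% of the members' windows and 19.6% of all windows, and GCGTG alone in 56.5% and 32.4%. The E-box CACGTG, which contains ACGTG, was in 10.9% and 7.2%. The median GC content was 60.7% in the members' windows and 52.7% in all windows, and its part in these shares was not tested. A match is a run of letters, not a measured binding site.

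Levels are given as log2 of a probe's processed signal minus the 75th percentile of its array, so that 0 is the 75th percentile and 1 unit is a doubling. They are compared between arrays only, not between genes. A gene with several probes (9 of the 32) is given by its brightest probe, and the others are named where they differ. Arrays differed in brightness before scaling. The 75th percentile lay between 253.1 and 521.6 in early Dunn, 609.1 and 840.4 in late Dunn, 788.2 and 1148.5 in early LM8, and 1032.9 and 1698.7 in late LM8 cells. Of the probes on an array, 39.0% to 49.0% were well above background in early Dunn, 52.4% to 59.6% in late Dunn, 53.7% to 56.0% in early LM8, and 55.5% to 59.1% in late LM8 cells, lowest where the arrays were dimmest. Over all probes, late Dunn replicate 1 stood apart from its group (r 0.919 and 0.923 with the others, which correlated at 0.986 with each other). Early Dunn replicate 1 had a median background signal of 87.0, against 22.5 to 34.0 on the other arrays. These genes are well expressed: 30 of the 32 were well above background on every array where they had a value. On 10 genes, spots marked by the scanner software as outliers left 1 array or more without a value, mostly on slide 2. Replicate numbers mark the slide, each of which carried 1 array of each group at the same position, so position cannot be told apart from group. Nothing in the labels says that the 3 arrays of a group came from separate cultures, so p-values measure the spread between these arrays. In bulk RNA, fewer cells that express a gene and less RNA per cell cannot be told apart.

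Between the lines the genes moved in both directions. With passages pooled (6 LM8 against 6 Dunn arrays), 13 of the 32 genes had an adjusted p under 0.05 by limma, 4 higher and 9 lower in LM8. Of all 20143 genes tested, 44.7% were called in this comparison, 5.49% higher and 39.2% lower, so the share of members called is close to the background. The count was 5 without late LM8 replicate 2 or 3 and 7 without early Dunn replicate 3. The share of all genes called fell as well, to 13.8%, 14.3% and 17.8% in these runs. At early passage alone, 2 members were called (Slc16a3 higher, Pdk4 lower) against 4.66% of all genes. At late passage alone, 3 were called (Slc16a3 and Ldhb higher, Aldoc lower) against 3.85% of all genes. Single arrays decided part of these calls. The early count was 1 without any 1 of the early LM8 arrays or early Dunn replicate 3, and 4 without early Dunn replicate 2. In these runs 1.12%, 1.33%, 1.16%, 1.65% and 42.4% of all genes were called, in that order. The late count was 1 without any 1 of the late LM8 arrays or late Dunn replicate 3, and 5 without late Dunn replicate 1. Here 1.26%, 0.894%, 1.03%, 1.69% and 9.84% of all genes were called. Fewer members were called between passages, with 3 arrays per group as in the comparisons within a stage. None had an adjusted p under 0.05 in late versus early Dunn cells, where 0.00497% of all genes did. Without adjustment, 3 members had p under 0.05 there, and these same 3 also exceeded 2-fold (Aldoc higher, Pfkp and Slc16a3 lower), against 4.97% of all genes. With the slide as a block this count was 5, as Hk2 (2.55) and Car9 (-1.24) joined, of which the first rests on early Dunn replicate 1 and the second was not well above background in Dunn. The share of all genes over 2-fold with the block is not given here. The methods' t-test also gave 0 members after adjustment in Dunn. In late versus early LM8 cells, 1 member was called (Aldoc, higher) against 2.79% of all genes. It was also the only one over 2-fold at an unadjusted p under 0.05, against 7.37% of all genes. For 28 of the 32 genes the 95% interval of the LM8 passage difference lay within 2-fold either way, while in Dunn cells this held for 5 genes. The same share over all genes is not given here. Over all probes the arrays spread more in Dunn. The median SD over all probes was 0.81 in early and 0.93 in late Dunn, against 0.30 in early and 0.32 in late LM8 cells. Over the members it was 0.28, 0.18, 0.19 and 0.12, in that order, so late Dunn was no wider than early LM8. The passage difference did not differ between the lines at an adjusted p under 0.05 for any member (0.616% of all genes did). At an unadjusted p under 0.05, 4 members passed this interaction test of limma (Slc16a3, Pdk4 and Pfkp higher, Aldoc lower in LM8 relative to Dunn). At that level 1366 of all 20130 genes passed. The median difference of the members was -0.35 at early and -0.14 at late passage between the lines, -0.27 for passage in Dunn and -0.06 in LM8. Over the genes well above background it was -0.36, -0.21, -0.24 and -0.07, so the members as a whole sat where expressed genes sat.

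**Figure D1:**
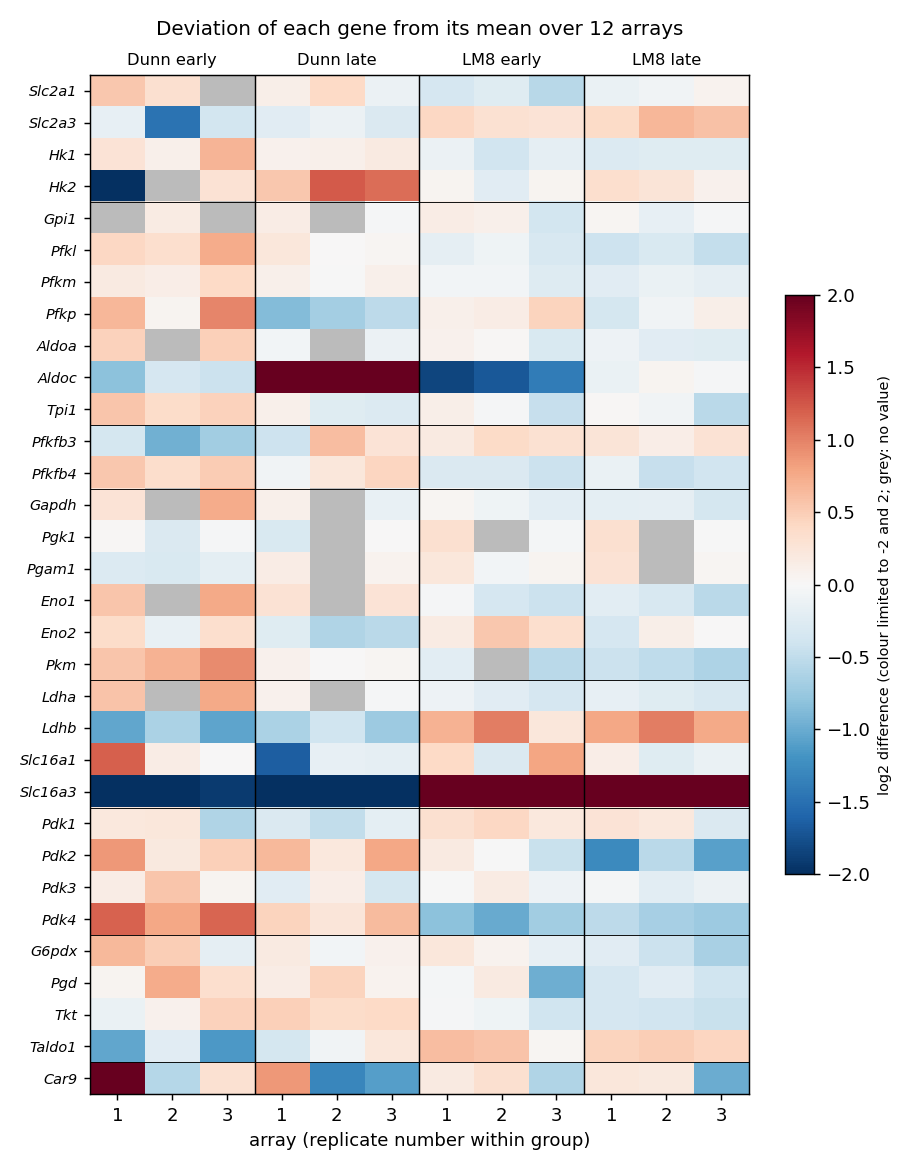
Deviation of each of the 32 genes (rows, grouped by role) from its own mean over the 12 arrays (columns, 3 per group), in log2 units, with red higher, blue lower and grey without a value. Slc16a3 and Ldhb are red on all 6 LM8 arrays, Pdk4 is red on all 6 Dunn arrays, and Aldoc is darkest on the 3 late Dunn arrays.

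Slc16a3, which encodes the lactate exporter MCT4, showed the greatest difference of any member between the lines. Its level was -0.42, -0.91 and -0.33 on the early Dunn arrays and -1.39, -1.55 and -1.90 on the late Dunn arrays. It was 4.36, 4.24 and 3.97 in early LM8 cells and 4.48, 4.49 and 3.99 in late LM8 cells. Every LM8 array was far above every Dunn array, and in Dunn the late arrays were all below the early ones. The gene was 26.8-fold higher in LM8 at early passage (log2 difference 4.75 ± 0.32 SE, adjusted p = 0.00116, limma, n = 3 per group). At late passage it was 61.2-fold higher (5.94 ± 0.27, adjusted p = 0.000987). Pooled over passages the difference was 5.34 ± 0.29 (40.5-fold, adjusted p = 2.09e-07, n = 6 per line), and it was 5.33, 5.60 and 5.10 within slides 1, 2 and 3. The second probe of the gene gave 5.37. Late Dunn cells had less of it than early ones, by 1.06 on the log2 scale in size (difference -1.06 ± 0.33), over 2-fold at an unadjusted p under 0.05 but with an adjusted p of 0.751. The within-slide differences were -0.98, -0.64 and -1.57. Leaving out early Dunn replicate 1 or 3, or late Dunn replicate 2 or 3, ended this call on the second criterion, with differences of -0.99, -0.95, -1.09 and -0.92. It was also lost under 5 of the 13 other settings, though the sign never changed. In LM8 cells the passage difference was 0.13 ± 0.23 (95% interval -0.42 to 0.68, adjusted p = 0.772). The difference of the passage effects was 1.19 ± 0.38 (adjusted p = 0.457, limma interaction).

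Ldhb encodes the lactate dehydrogenase subunit that prevails in tissues which use lactate. It was also higher in LM8. Its level was 0.86, 1.27 and 0.84 in early Dunn, 1.26, 1.50 and 1.17 in late Dunn, 2.59, 2.92 and 2.13 in early LM8, and 2.67, 2.92 and 2.65 in late LM8 cells. All LM8 arrays lay above all Dunn arrays. The pooled difference was 1.50 ± 0.20 (2.82-fold, adjusted p = 0.000485, limma), with 1.57, 1.54 and 1.38 within the slides. At late passage it was 1.43 ± 0.22 (adjusted p = 0.0383) and at early passage 1.56 ± 0.34 (adjusted p = 0.0599). The late call was lost without late LM8 replicate 1, 2 or 3 (adjusted p = 0.155, 0.232 and 0.183) and without late Dunn replicate 2 or 3 (0.0780 and 0.146), with the slide as a block (0.155) and without scaling (0.0638), while the difference stayed between 1.35 and 1.53 over the 6 runs that left out an array. Passage did not pass the test in either line (0.33 ± 0.30 in Dunn, 0.20 ± 0.25 in LM8).

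Ldha, the subunit that favours lactate formation, had its highest levels in early Dunn cells. The brightest of its 3 probes lacked a value on both Dunn arrays of slide 2. It read 8.24 and 8.43 in early Dunn, 7.75 and 7.64 in late Dunn, 7.57, 7.45 and 7.33 in early LM8, and 7.50, 7.42 and 7.34 in late LM8 cells. The groups of the lines did not overlap on this probe, but the pooled difference of -0.58 ± 0.22 had an adjusted p of 0.0523. The other probes gave -0.63 (adjusted p = 0.0289) and -0.86 (adjusted p = 0.0270), so 2 of 3 probes were called lower in LM8 under this scaling. For the brightest probe, limma gave -0.08 with quantile normalization (adjusted p = 0.740) and -0.01 with normexp (0.965). Without scaling it was at 0.81 (0.0756). Slc16a1, which encodes the transporter MCT1, was dim and not well above background on 3 of the 12 arrays, 2 of them early Dunn. It had a pooled difference of 0.22 ± 0.39 (adjusted p = 0.649).

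**Figure D2:**
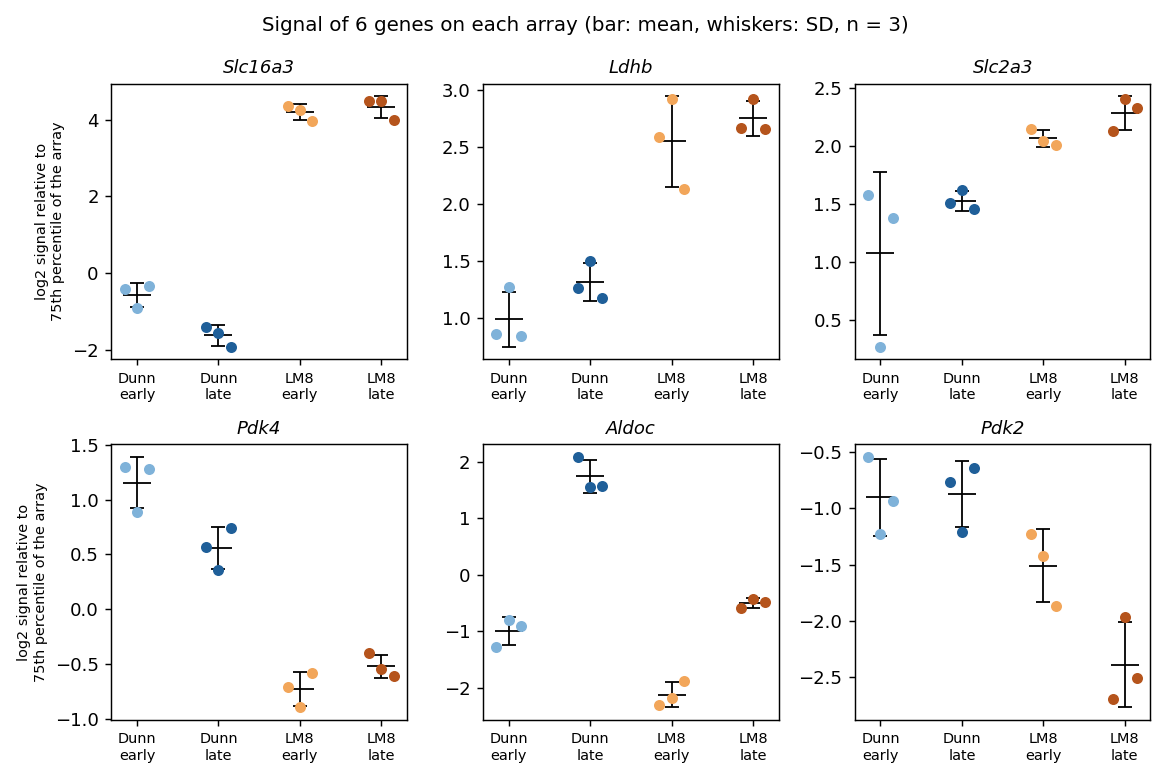
Level of Slc16a3, Ldhb, Slc2a3, Pdk4, Aldoc and Pdk2 on each array (points; log2 signal relative to the 75th percentile of the array) in the 4 groups, with the mean (bar) and SD (whiskers, n = 3); each panel has its own scale. Slc16a3, Ldhb and Slc2a3 lie higher on all LM8 arrays than on all Dunn arrays, Pdk4 lower, Pdk2 lower with the nearest arrays almost level, and Aldoc is higher at late passage in both lines.

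Among the genes of glucose uptake, Slc2a3, which encodes the high-affinity glucose transporter GLUT3, was higher in LM8. Its level was 1.58, 0.27 and 1.38 in early Dunn, 1.51, 1.62 and 1.46 in late Dunn, 2.15, 2.05 and 2.01 in early LM8, and 2.13, 2.41 and 2.33 in late LM8 cells. Early Dunn replicate 2 was well below the others, and the lines did not overlap. The pooled difference was 0.88 ± 0.24 (1.84-fold, adjusted p = 0.0247, limma), with 0.59, 1.28 and 0.75 within the slides. The call was lost without late LM8 replicate 2 or 3 (adjusted p = 0.0600 and 0.0569) and without all of slide 1 (0.0882). It held without early Dunn replicate 2 (0.67, adjusted p = 0.0219). Slc2a1, which encodes the basal transporter GLUT1, had a pooled difference of -0.47 ± 0.20 (adjusted p = 0.0729) with early Dunn replicate 3 missing. Thus the 2 transporters had opposite signs, and of these only Slc2a3 passed the test.

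The hexokinases trap glucose as glucose 6-phosphate. Hk1 was lower in LM8, with a pooled difference of -0.47 ± 0.17 (adjusted p = 0.0375), and its second probe gave -0.66 (adjusted p = 0.0197). Hk2, the inducible form, hinged on 1 array. It read -2.41 and 1.60 on early Dunn replicates 1 and 3, with replicate 2 missing, while the late Dunn arrays read 1.86, 2.55 and 2.44. The early LM8 arrays read 1.37, 1.09 and 1.38 and the late ones 1.65, 1.57 and 1.40. The pooled difference was 0.20 ± 0.76 with all arrays and -0.70 without early Dunn replicate 1 (adjusted p = 0.832 and 0.0523). The late versus early Dunn difference likewise moved from 2.68 to 0.68 without that array. With early Dunn replicate 3 left out, replicate 1 was the only early Dunn array left, and Hk2 was then the 1 member called in the interaction test.

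Aldoc was the member that moved most with passage. It encodes aldolase C, the isoform typical of brain, one of the enzymes that cleave fructose 1,6-bisphosphate. Its level was -1.28, -0.80 and -0.90 in early Dunn and 2.08, 1.56 and 1.57 in late Dunn cells. In LM8 cells it was -2.30, -2.17 and -1.87 early and -0.59, -0.42 and -0.49 late. In both lines every late array was above every early array, and at each stage every Dunn array was above every LM8 array. Late Dunn cells had 6.63-fold more than early ones (2.73 ± 0.33), over 2-fold at an unadjusted p under 0.05 under all 19 alternatives run. The adjusted p was 0.200 and ranged from 0.000884 to 0.979 over these alternatives. It was under 0.05 with quantile normalization (0.0331), the filter on dim probes (0.0120), array weights (0.0218) and 1 fit over all 12 arrays (0.000884). Within slides the Dunn difference was 3.36, 2.36 and 2.47. Late LM8 cells had 3.06-fold more than early ones (1.61 ± 0.20, adjusted p = 0.0106, limma), with 1.71, 1.75 and 1.38 within the slides. This LM8 call was lost without early LM8 replicate 1 (adjusted p = 0.0504), late LM8 replicate 2 (0.0602) or replicate 3 (0.0661), with the slide as a block (0.0502) and without slide 1 (0.123). The interaction of line and passage was -1.12 ± 0.35 (adjusted p = 0.437). Between the lines Aldoc was lower in LM8 at late passage (-2.24 ± 0.25, 4.71-fold, adjusted p = 0.0127). At early passage the difference was -1.12 ± 0.31 (adjusted p = 0.0738), and pooled it was -1.68 ± 0.66 (adjusted p = 0.0556). The late call was lost without any 1 of the late LM8 arrays (adjusted p = 0.0869, 0.0996 and 0.0967 for replicates 1, 2 and 3), without late Dunn replicate 3 (0.0558), with the slide as a block (0.113) and without scaling (0.176).

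**Figure D3:**
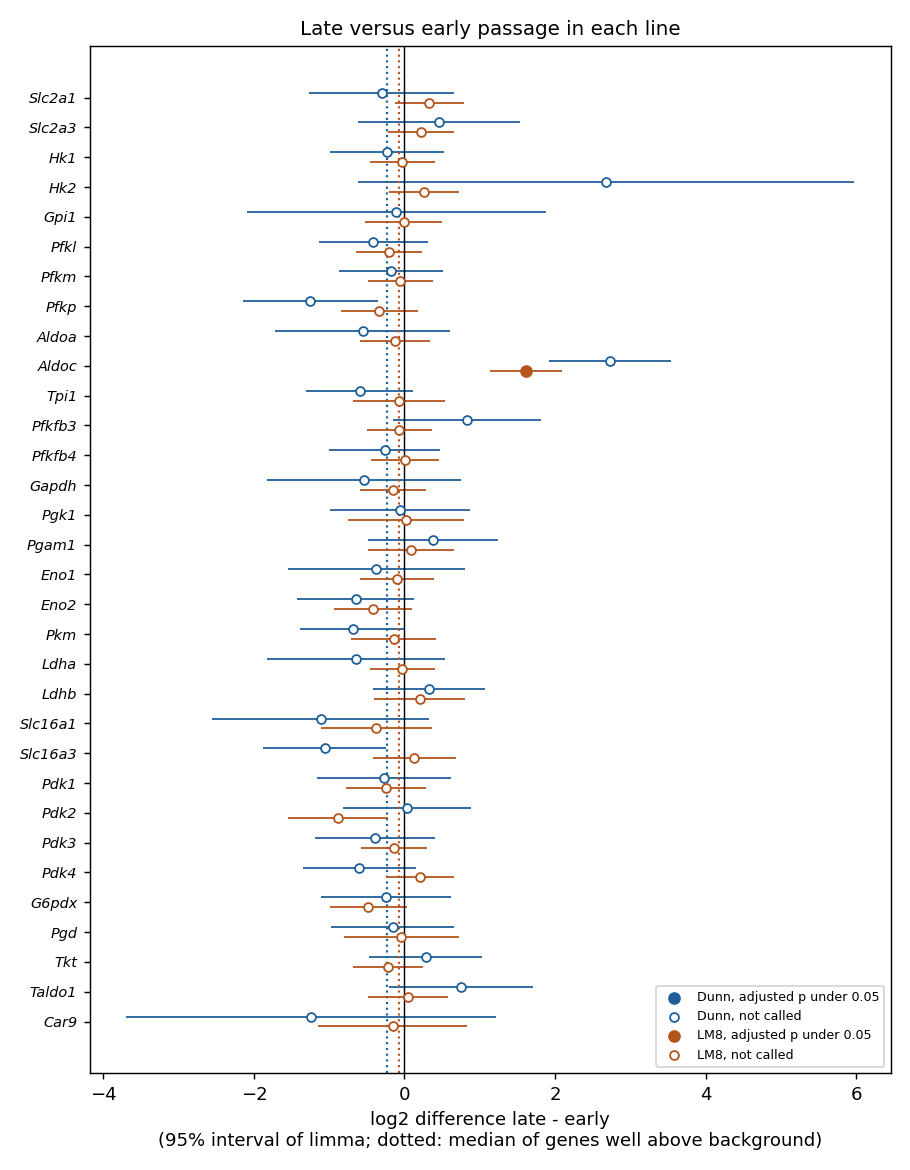
Log2 difference of late minus early passage (x axis) for the 32 genes (y axis) in Dunn (blue) and LM8 (orange), with 95% intervals of limma; filled points have an adjusted p under 0.05, and dotted lines mark the median of genes well above background, -0.24 in Dunn and -0.07 in LM8. Aldoc lies to the right in both lines, at 2.73 and 1.61, and the Dunn intervals are wider than those of LM8 for most genes.

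The other enzymes of upper glycolysis differed less. The muscle-type aldolase gene Aldoa, which lacked both Dunn arrays of slide 2, had a pooled difference of -0.32 ± 0.22 (adjusted p = 0.232). Of the phosphofructokinases, which set the pace of the pathway, Pfkl (liver type) was lower in LM8, by 0.59 in size (pooled difference -0.59 ± 0.18, adjusted p = 0.0287), and Pfkm (muscle type) had -0.30 ± 0.15 (adjusted p = 0.114). Pfkp (platelet type) read 2.44, 1.83 and 2.76 in early Dunn, 0.92, 1.10 and 1.26 in late Dunn, 1.88, 1.93 and 2.22 in early LM8, and 1.42, 1.71 and 1.90 in late LM8 cells. The early and late Dunn arrays did not overlap. The Dunn difference of -1.25 ± 0.36 exceeded 2-fold at an unadjusted p under 0.05 (adjusted p = 0.712), and that of LM8 was -0.33 ± 0.22 (adjusted p = 0.381). Within slides the Dunn values were -1.52, -0.73 and -1.50. A second, dim probe of Pfkp, well above background on 1 Dunn and all 6 LM8 arrays, had a Dunn difference of -0.25 ± 0.91. The Dunn call was lost with the mean over both probes (-0.75), normexp background correction (-0.71), no scaling (-0.27) and slide 1 left out (-1.11). Between the lines, pooled, the dim probe was called higher in LM8 (1.28 ± 0.48, adjusted p = 0.0476, limma). The brightest Pfkp probe was not (0.13 ± 0.33, adjusted p = 0.757). Gpi1 and Tpi1, the isomerases, had pooled differences of -0.14 ± 0.22 and -0.32 ± 0.22 with adjusted p of 0.613 and 0.231. The Gpi1 probe had a value on 1 early Dunn array and 2 late ones.

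Pfkfb3 and Pfkfb4 encode the bifunctional enzymes that make and remove fructose 2,6-bisphosphate, the activator of phosphofructokinase. Pfkfb4 read 1.02, 0.84 and 1.00 in early Dunn, 0.42, 0.73 and 0.92 in late Dunn, 0.21, 0.21 and 0.06 in early LM8, and 0.36, 0.03 and 0.10 in late LM8 cells. The lines did not overlap. Its pooled difference was -0.66 ± 0.17 (1.58-fold lower, adjusted p = 0.0190, limma), and it was -0.43, -0.66 and -0.88 within the slides. The call was lost without slide 1 (adjusted p = 0.0664). The 2 probes of Pfkfb3 went in opposite directions. The brighter one had a pooled difference of 0.52 ± 0.26 (adjusted p = 0.116) and the dimmer one -1.18 ± 0.37 (adjusted p = 0.0287). Both were well above background on all 12 arrays, and they carry different transcript accessions of the gene.

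In lower glycolysis Eno1 and Pkm were called lower in LM8, and Eno2, Pgk1, Pgam1 and the brightest probe of Gapdh did not pass. Eno1, the main enolase, lacked the Dunn arrays of slide 2 and read 7.43 and 7.63 in early Dunn, 7.16 and 7.15 in late Dunn, 6.85, 6.54 and 6.44 in early LM8, and 6.65, 6.55 and 6.33 in late LM8 cells. The pooled difference was -0.78 ± 0.20 (1.72-fold lower, adjusted p = 0.0244, limma), with -0.54 and -1.0 within slides 1 and 3. Pkm, the pyruvate kinase of most tissues and tumours, lacked early LM8 replicate 2. It read 6.76, 6.91 and 7.15 in early Dunn, 6.30, 6.22 and 6.24 in late Dunn, 5.99 and 5.67 in early LM8, and 5.78, 5.70 and 5.59 in late LM8 cells. Its pooled difference was -0.85 ± 0.23 (1.80-fold lower, adjusted p = 0.0241), with -0.65 and -1.06 within slides 1 and 3. For both genes all LM8 arrays were below all Dunn arrays. The Eno1 call was lost without early Dunn replicate 3 (adjusted p = 0.0517), late LM8 replicate 2 (0.0557) or replicate 3 (0.0571), without slide 1 (0.0958), and when flagged spots were kept (-0.44, adjusted p = 0.114). The Pkm call was lost without late LM8 replicate 2 (0.0585) or replicate 3 (0.0587) and without slide 1 (0.0909). Eno2, the neuronal enolase, had 0.28 ± 0.23 (adjusted p = 0.322), and Pgk1 and Pgam1 had 0.27 ± 0.21 and 0.22 ± 0.19 (adjusted p = 0.311 and 0.352).

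The study's methods used Gapdh as the reference of the quantitative PCR, whose reported results are for the human lines SAOS and LM5. On the mouse array Gapdh is read by 7 probes. In LM8 against Dunn cells, 5 of these probes were lower and 2 higher, with pooled differences from -0.61 to 0.26, and 1 passed the test. The brightest, without the Dunn arrays of slide 2, gave -0.40 ± 0.22 (adjusted p = 0.151). Gapdh, Pgk1, Eno1, Ldha, Aldoa, Tpi1 and Pgam1 have processed copies of near-identical sequence in the mouse genome. Their probes could read more than 1 locus, which was not tested here.

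**Figure D4:**
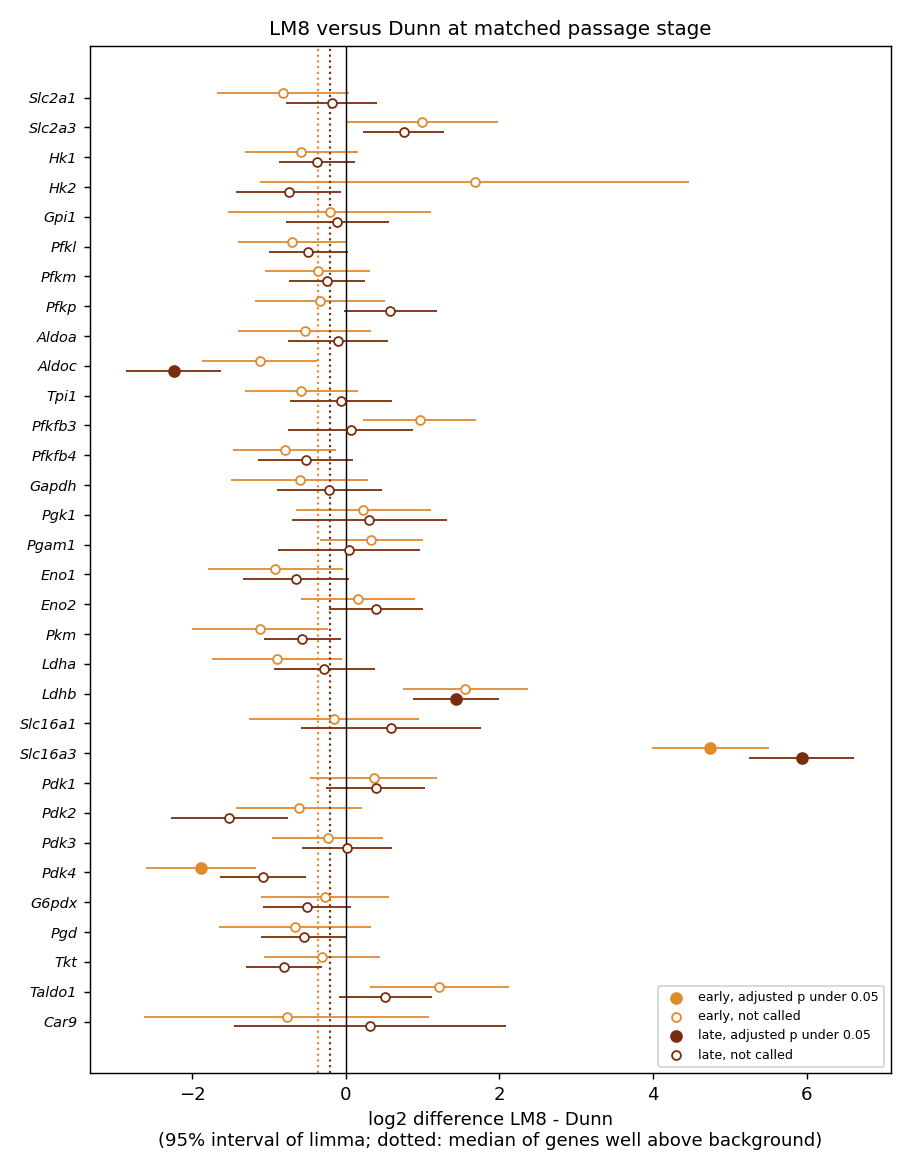
Log2 difference of LM8 minus Dunn (x axis) for the 32 genes (y axis) at early (orange) and late (brown) passage, with 95% intervals of limma; filled points have an adjusted p under 0.05, and dotted lines mark the median of genes well above background, -0.36 early and -0.21 late. Slc16a3 stands at 4.75 and 5.94, away from all others, Ldhb at 1.56 and 1.43, and Pdk4 at -1.88 and -1.07.

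The kinases of pyruvate dehydrogenase differed among themselves. Pdk4, the isoform induced by fasting and fatty acids, was lower in LM8. Its level was 1.30, 0.89 and 1.28 in early Dunn, 0.56, 0.36 and 0.74 in late Dunn, -0.71, -0.89 and -0.58 in early LM8, and -0.40, -0.54 and -0.61 in late LM8 cells. No LM8 array reached a Dunn array. The pooled difference was -1.48 ± 0.21 (2.79-fold lower, adjusted p = 0.000667, limma), with -1.48, -1.34 and -1.61 within the slides. It was -1.88 ± 0.30 at early passage (adjusted p = 0.0250) and -1.07 ± 0.22 at late passage (adjusted p = 0.0788). The early call was lost without early LM8 replicate 1, 2 or 3 (adjusted p = 0.131, 0.138 and 0.120) or early Dunn replicate 3 (0.0881), with the slide as a block (0.0812), without slide 1 (0.122), when flagged spots were kept (0.0598) and under scaling by the median of probes well above background (0.0557). Without scaling the early difference shrank to -0.40 (adjusted p = 0.619). Pdk2, the widely expressed isoform, read -0.55, -1.23 and -0.94 in early Dunn and -0.77, -1.21 and -0.65 in late Dunn cells. It read -1.23, -1.43 and -1.87 in early and -2.69, -1.97 and -2.51 in late LM8 cells. The dimmest Dunn arrays and the brightest LM8 array were nearly level. The pooled difference was -1.06 ± 0.27 (2.08-fold lower, adjusted p = 0.0200), with -1.30, -0.48 and -1.39 within the slides, and the call was lost without slide 1 (0.0835). Its lowest levels were in late LM8 cells, where the passage difference was -0.88 ± 0.28 (adjusted p = 0.236). Pdk1, a target of hypoxia-inducible factor, and Pdk3 had pooled differences of 0.38 ± 0.21 and -0.11 ± 0.19 (adjusted p = 0.144 and 0.642). So 2 of the 4 kinases were called lower and none higher.

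In the pentose phosphate pathway, Taldo1 was called higher in LM8, and Tkt and Pgd were called lower under the 75th percentile scaling alone. Taldo1 encodes transaldolase of the non-oxidative branch. Its pooled difference was 0.87 ± 0.26 (1.83-fold, adjusted p = 0.0284), with 1.23, 0.68 and 0.70 within the slides. It was 3.76, 4.56 and 3.64 in early Dunn, 4.45, 4.73 and 5.02 in late Dunn, 5.41, 5.36 and 4.83 in early LM8, and 5.24, 5.28 and 5.23 in late LM8 cells, so that a late Dunn array overlapped the LM8 range. Tkt, transketolase of the same branch, had -0.55 ± 0.18 (adjusted p = 0.0300), and Pgd, of the oxidative branch, -0.60 ± 0.22 (adjusted p = 0.0455). Quantile normalization gave adjusted p of 0.138 for Tkt and 0.170 for Pgd, and without scaling the differences turned to 0.64 and 0.59. G6pdx, the gate enzyme of the oxidative branch, had -0.39 ± 0.22 (adjusted p = 0.152). Taldo1, Hk1, Pfkl, Tkt and Pgd were called but fell outside the rule for genes named in full, and were picked out after their values were seen. The Taldo1 call was lost without late LM8 replicate 2 (adjusted p = 0.0638) or 3 (0.0587), early Dunn replicate 3 (0.0560) or slide 1 (0.147). Of the 12 runs that left out 1 array, Hk1 lost its call in 8, Pfkl in 5, Tkt in 6 and Pgd in 9, each of them without any 1 of the late LM8 arrays, early LM8 replicate 3 or early Dunn replicate 3. Car9, a carbonic anhydrase of the cell surface and a common marker of hypoxia, was well above background on 1 of 12 arrays, in late LM8 cells, and no difference could be read from it.

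Most of the lower calls turned on how arrays were scaled, and the higher ones did not. In the pooled comparison the median difference was -0.68 over all genes, -0.29 over the genes well above background and -0.31 over the 32 members, so a member at -0.3 sat at the middle of the expressed genes. Relative to that median of expressed genes, Slc16a3 was at 5.63, Ldhb at 1.78, Slc2a3 at 1.16, Taldo1 at 1.15, Pdk4 at -1.19 and Pdk2 at -0.77. Scaling by the median of probes well above background left 6 of the 13 calls, 4 higher and 2 lower (Pdk4 and Pkm). Quantile normalization gave 5 higher and 5 lower, normexp background correction 7 higher and 8 lower, and the deposited signals without scaling 15 higher and none lower. These counts include Car9, too dim to be read, as higher with quantile normalization (0.97) and as lower with normexp (-1.22). The median of probes well above background called 16.5% of all genes, quantile normalization 20.4%, normexp 64.4% and no scaling 24.8%. Slc16a3, Ldhb, Slc2a3 and Taldo1 were called higher under all 5. Pdk4 was called lower under the 4 that scale the arrays, and without scaling it was at -0.29 (adjusted p = 0.475). Eno1, Tkt and Pgd were called under the 75th percentile alone, Hk1 there and with normexp, and Pfkl there, with normexp and with quantile normalization. For Eno1, the difference without scaling was 0.62. Pdk2 and Pfkfb4 missed the threshold under scaling by the median of probes well above background (adjusted p = 0.0582 and 0.0626). Pkm was also called under these 4, at -0.55 to -0.96, but without scaling it was at 0.34. Without slide 1, which holds both Dunn arrays named above as apart or of high background, Slc16a3 (5.35), Ldhb (1.46) and Pdk4 (-1.47) were the 3 members called. Of all genes 7.98% were called in that run.

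**Figure D5:**
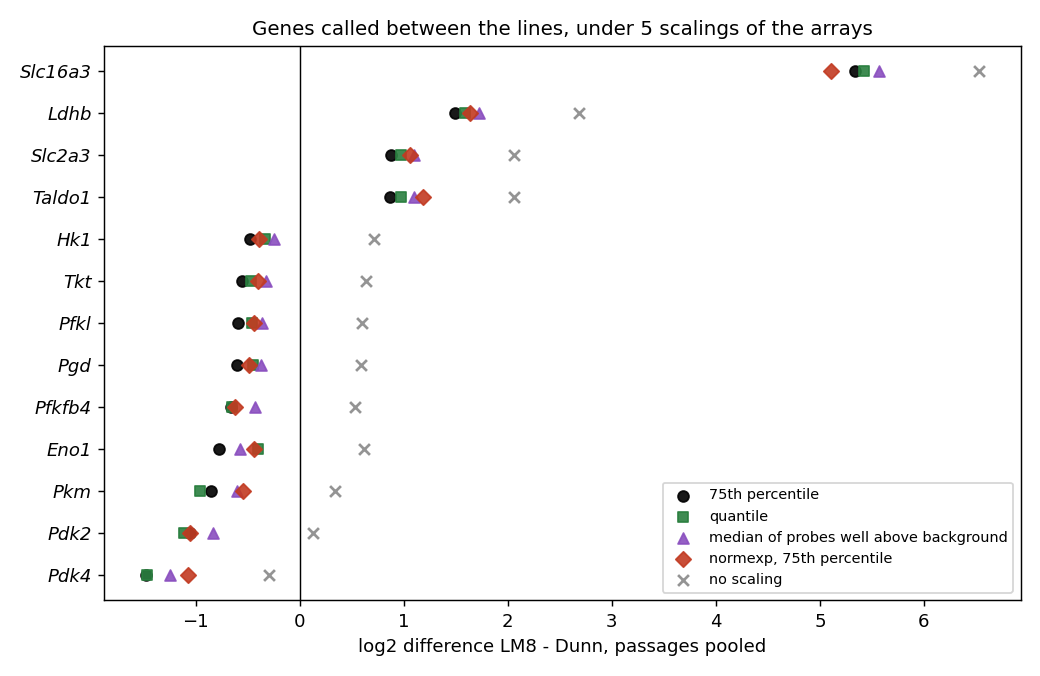
Pooled log2 difference of LM8 minus Dunn (x axis) for the 13 genes called in this comparison (y axis) under 5 ways of scaling the arrays (symbols). Slc16a3, Ldhb, Slc2a3 and Taldo1 stay to the right of 0 under all 5, Pdk4 stays to the left, and the other 8 move from left to right of 0 without scaling.

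Of 47 further genes of the same pathways on a fixed list, 44 were measured. With passages pooled, 8 were higher and 10 lower in LM8 at an adjusted p under 0.05, against the 5.49% and 39.2% given above. The higher ones include Eno3, the muscle enolase (1.87 ± 0.40, adjusted p = 0.00898). Fbp1 and Fbp2, which encode fructose bisphosphatases that run against phosphofructokinase, had 1.36 ± 0.41 and 1.37 ± 0.42 (adjusted p = 0.0286 and 0.0287). The glucose transporter genes Slc2a10 and Slc2a4 had 1.37 ± 0.23 (adjusted p = 0.00244) and 1.13 ± 0.27 (adjusted p = 0.0139). Pdhb, Pfkfb2 and Prps2 were the others, and Fbp2 and Prps2 were not well above background on most Dunn arrays. The lower ones include Bsg (basigin, the partner that carries monocarboxylate transporters to the membrane), at -0.84 ± 0.22 (adjusted p = 0.0208). It read 4.50 to 4.75 in early and 3.77 to 4.52 in late Dunn cells, against 3.31 to 3.91 in early and 3.18 to 3.71 in late LM8 cells, so that late Dunn overlapped early LM8. Slc16a7, which encodes the transporter MCT2, was at -1.87 ± 0.45 (adjusted p = 0.0153), opposite in sign to Slc16a3. Dlat, a subunit of pyruvate dehydrogenase, was at -0.96 ± 0.24 (adjusted p = 0.0184), and Mlxip, a glucose-sensing transcription factor, at -1.32 ± 0.18 (adjusted p = 0.000573). Tigar, Pgls, Pdp2, Shpk and Pklr were also lower, and Pklr and Shpk were not well above background on some Dunn arrays. At early passage alone Slc2a4 was called higher (1.63 ± 0.32, adjusted p = 0.0445), and at late passage alone Eno3 was called higher (2.46 ± 0.25, adjusted p = 0.00946) and Dlat lower (-1.41 ± 0.23, adjusted p = 0.0452). In late versus early LM8 cells 1 gene of this list was called lower. In late versus early Dunn cells none was called, and Eno3 (-1.70), Fbp1 (-1.62), G6pc3 (-1.17) and Pgls (-1.19) were over 2-fold lower at an unadjusted p under 0.05.

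The labels call the cells osteoblastic. Of 9 listed osteoblast markers 8 were measured, and each of these was well above background on every array where it had a value, and 4 of them (Alpl, Col1a2, Sparc and Spp1) lacked a value on 1 to 4 arrays. The matrix gene Col1a1 (4.74 to 5.51 over the arrays) and the osteoblast transcription factors Sp7 (2.24 to 3.26) and Runx2 (-0.85 to 0.81) had values on all arrays. With passages pooled, Alpl was called higher in LM8 (1.01 ± 0.37, adjusted p = 0.0444), and Ibsp (-0.83 ± 0.27, adjusted p = 0.0294) and Spp1 (-0.96 ± 0.33, adjusted p = 0.0379) lower. Of 18 markers of other cell types, 3 were well above background on all 12 arrays (Csf1r, Kdr and Plin1) and 12 on at most 2 arrays, among them Ptprc, Epcam, Cdh5, Myod1 and Adipoq. The others were Cd14 (11 arrays), Des (10) and Pecam1 (7). With passages pooled, 39.2% of all genes were called lower in LM8, and the median difference of all genes was -0.68. All 3 adipocyte markers were among those called lower, the direction of Pdk4. So were Tek, Cdh1, Krt8, Myod1 and Myog, which were above background on 1 array at most. Adipoq was well above background on 1 array and Fabp4 on 0, and the summed linear level of the list was 0.152 to 0.283 in early Dunn, 0.0972 to 0.234 in late Dunn, 0.0455 to 0.0540 in early LM8 and 0.0324 to 0.0486 in late LM8 cells, where 1 is the 75th percentile of an array. Its part in the Pdk4 difference was not tested.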

How the data were processed

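Gene expression was measured in 12 Cy3-labelled RNA samples, 3 per group, on 3 slides of 4 arrays. The authors deposited Agilent Feature Extraction output (version 10.7.3 per the submitters' processing notes), whose processed signal is an intensity after background subtraction, without scaling between arrays. They also deposited 1 table, which holds the same intensities rounded, to within 0.6%. The labels name RNeasy for the RNA extraction and the paper's methods another reagent.

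Without controls there were 43020 spots, which were averaged into 39429 probes after outlier-flagged spots were left out on each array. On the log2 scale the 75th percentile of an array was then taken off its values. No spot was saturated. Accessions were matched to RefSeq genes of GRCm38.p6 (67.4% of probes, 20144 genes), for names and promoter sequences only, as the array design names mm9. The comparisons used limma (version 3.58.1, R 4.3.3) on the arrays of the compared groups, without a block, with Benjamini-Hochberg adjustment over all probes. Differences are the first group minus the second, ± SE. Intervals are 95% intervals. An adjusted p under 0.05 was called, and for passage also a difference over 2-fold at an unadjusted p under 0.05. Arrays of 1 slide share a replicate number. Those of early and late Dunn deviated together (r = 0.68, 0.64 and 0.22 for slides 1 to 3), which pairs them by number in that comparison. The interaction was fitted over all 12 arrays. Named in full are, per comparison, the at most 8 called members with the smallest p, and in the passage comparisons those over 2-fold. The members, gene lists and motifs were chosen with earlier results of these data known. The precision is limited by the number of arrays.

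The alternatives were quantile normalization, the median of probes well above background, normexp (offset 50, on median signals, since the files hold no mean signal), the deposited table unscaled, a filter on dim probes, 1 fit over 12 arrays, the replicate block, array weights, other probe choices, the methods' t-test and leaving out each array. Keeping flagged spots and leaving out slide 1 were added after seeing the data. The steps were tested on simulated data. Plots used matplotlib 3.10.9. Some genes of the wider pathway list are not reported here.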

Additional observations from a re-analysis of the deposited data

How the results depend on the processing

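The counts of members called moved with the setting more than the leading differences did. In late versus early Dunn, 1 member (Aldoc) rather than 0 had an adjusted p under 0.05 with quantile normalization, the filter on dim probes, array weights or 1 fit over 12 arrays. Of all genes 0.303%, 1.74% (of those kept by the filter), 0.715% and 1.79% were called there, against 0.00497%. The count over 2-fold, 3 as reported (4.97% of all genes), was 7 without scaling, 5 with the replicate block, 6 with array weights and 5 in 1 fit over 12 arrays. No share of all genes over 2-fold is given for these settings, so these counts cannot be set against it. In late versus early LM8 the count with an adjusted p under 0.05 fell from 1 to 0 with the replicate block and without slide 1. The share of all genes called was 1.65% and 0.844% there, against 2.79%. At early passage the 2 calls between the lines became 6 with quantile normalization, 8 with normexp, 6 without scaling, 9 with the filter, 15 with array weights, 7 in 1 fit over 12 arrays, and 1 with the replicate block, with flagged spots kept and without slide 1. In the same order, the share of all genes called was 11%, 45.6%, 9.89%, 24.8% (of those kept), 55.2%, 14.3%, 1.3%, 3% and 2.9%, against 4.66%. At late passage the 3 calls became 7 with quantile normalization, 8 with the filter, 8 with array weights, 8 by the methods' t-test, 5 with the mean of all probes, 5 in 1 fit over 12 arrays, 1 without scaling and 1 with the replicate block. Over all genes the share went from 3.85% to 8.62%, 22.9% (of those kept), 16.6%, 7.16%, 5.67%, 8.25%, 2.49% and 0.452%, in that order. The late calls with quantile normalization include Car9. The 13 pooled calls became 6 under the median of probes well above background, 8 with flagged spots kept and 3 without slide 1, and stayed at 13 with the replicate block. Of all genes 16.5%, 19.7%, 7.98% and 50.6% were called in these settings, against 44.7%. Without scaling the pooled differences of Pfkfb4 (0.53), Pdk2 (0.13), Pkm (0.34) and Eno1 (0.62) turned positive, where the median of all genes was 0.50 against -0.68 with scaling. The cause was not tested.

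Leaving out 1 array gave 0 to 0 calls in Dunn, and 2 to 4 over 2-fold. It gave 0 to 1 in LM8 (1 to 2 over 2-fold), 1 to 4 at early passage, 1 to 5 at late passage, 5 (without late LM8 replicate 2) to 15 (without late Dunn replicate 3) pooled, and 0 to 1 in the interaction. In the 2 pooled runs named, 13.8% and 49.4% of all genes were called. In the interaction run without early Dunn replicate 3, which gave the 1 call, 0.428% were. No share of all genes over 2-fold is given for the runs that left out an array. A group left with 1 or 2 arrays borrows its spread from the other. Slc16a3 and Ldhb pooled were called in all 25 alternatives, and Pdk4 in 24. Of the single-gene results under all alternatives, 308 kept their direction and side of the threshold, 59 lost the call and 4 changed sign.

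Same-numbered arrays share a slide. Their deviations from the group means correlated at -0.23 to 0.68 in 18 pairs, over 0.1 in 12. The number was taken as a pairing in late versus early Dunn alone, since in each other pair of groups compared at least 1 of the 3 correlations was under 0.1. The SE and p-values given above for single genes in that comparison come from the fit without a block. With the block, Aldoc, Pfkp and Slc16a3 each had an adjusted p of 0.199 (limma). The replicate block ended the calls of Aldoc (LM8 passage, late lines), Pdk4 (early lines) and Ldhb (late lines). Signal over background limits Car9 and Slc16a1, and the second probes of Pfkp and Pfkfb4.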
